A study of Mus musculus with 2 samples.

Results

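Myeloid cells were the minor leukocyte fraction that remained in 2 single-cell libraries made to profile tumor endothelium. A barcode was counted as a myeloid cell when it held at least 500 genes and at most 10% mitochondrial UMIs (unique molecular identifiers, 1 per captured transcript), at least 5 UMIs over Tyrobp, Fcer1g, Csf1r, C1qa, C1qb and Lyz2, at least 1 UMI of Ptprc, Laptm5 or Coro1a, at most 1 UMI of Cd79a, Cd3e and Trac together, and at most 1 UMI of Krt8, Krt18 and Rhox5 together. These limits found 160 cells among 12258 barcodes that passed the gene and mitochondrial limits (14795 barcodes in all). There were 132 of 6659 in PyMT-M and 28 of 5599 in PyMT-N. The members were thus chosen by the UMIs of the genes named in these limits, so those genes and the number of cells found are given as a description.

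PyMT-M and PyMT-N are sub-lines of MMTV-PyMT, a transgenic model in which the mouse mammary tumor virus promoter drives the polyoma middle T oncogene in mammary epithelium, on the C57BL/6 background. The study treats PyMT-M tumors as macrophage-enriched (High-MAC) and PyMT-N tumors as neutrophil-enriched and poor in macrophages (Low-MAC), and asked whether the endothelium differs between them. Cells of each line were transplanted into the mammary fat pad of untreated female mice of 6 to 8 weeks, and 3 tumors per line were pooled into 1 library. The tumors were dissociated, Fc receptors were blocked, and cells bound by anti-CD45 or anti-Ter119 were removed on magnetic beads. Cells carrying CD31 and VE-cadherin were then enriched and sorted. By that protocol, the cells described here escaped a depletion for leukocytes and passed an endothelial sort. Most barcodes within the gene and mitochondrial limits were tumor cells by their markers, however, at 53.64% in PyMT-M and 61.98% in PyMT-N. Blood endothelial cells made up 9.1% and 17.65%. Whether the myeloid cells carried the sorted proteins was not tested.

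With 1 library per line there is no replicate, so no p-value is given. Each interval is a 95% interval that covers counting error only, and it says nothing of the spread between tumors. It is exact, except for differences of shares, where the square-and-add method is approximate. The 2 libraries held 141067264 and 116150425 UMIs in 7821 and 6974 barcodes. The myeloid cells were shallow beside them, with a median of 2492 UMIs (range 754 to 7457) in PyMT-M and 5362.5 (1252 to 31110) in PyMT-N against library medians of 18790 and 15878. Depth was uneven in PyMT-N, where the 4 deepest myeloid cells held 44.9% of all myeloid UMIs, compared with 7.53% in PyMT-M. The libraries shared 20 barcode sequences, and 0 of these were myeloid cells.

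Myeloid cells are the innate arm of the white blood cells. Monocytes leave the blood and become macrophages, which engulf dead cells and make the complement protein C1q. Neutrophils carry the S100a8 and S100a9 alarmins, dendritic cells present antigen on MHC class II, and basophils store granule proteases. In mammary tumors these cells are known for promoting vessel growth and for restraining or feeding the T cell response. Several of them, monocytes and neutrophils included, carry some CD31 on their surface, whereas VE-cadherin is an endothelial junction protein.

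Spi1, the PU.1 factor of the myeloid lineage, which the rule did not read, was found in 88 of 132 PyMT-M cells and 15 of 28 PyMT-N cells, at 612 and 301 CPM (counts scaled to a total of 1000000 UMIs), compared with 0 and 0.301 CPM in blood endothelial cells. Itgam, the CD11b integrin chain of monocytes and granulocytes, was found in 62 and 12 cells and at 0 in endothelial cells of both libraries. The genes of the rule itself are a description. Tyrobp and Fcer1g, adaptor proteins that pass on signals of Fc and other activating receptors, were near universal. Tyrobp was found in 131 of 132 cells of PyMT-M and 24 of 28 of PyMT-N, and Fcer1g in 131 and 28. Lyz2, the lysozyme of monocytes, macrophages and neutrophils, was found in 106 and 18 cells, Csf1r, the receptor for the macrophage growth factor CSF1, in 52 and 11, and C1qa in 24 and 15. Blood endothelial cells were by definition limited to 2 UMIs of the 6 genes, and in them Tyrobp was found in 0.990% and 0.810% of cells, Lyz2 in 0.495% and 1.01%, and C1qa in 0% (upper bound 0.607%) and 0.506%. Ptprc, which encodes the CD45 that the beads bound and is 1 of the 3 leukocyte genes the rule accepts, was found in 118 and 22 myeloid cells.

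The label held less well for a minority. In 22 cells of PyMT-M (16.7%) and 8 of PyMT-N (28.6%) the 6-gene sum came from Tyrobp and Fcer1g alone, which natural killer cells and basophils also express. The sum ran from 5 to 193 UMIs (median 30) in PyMT-M and from 5 to 303 (median 39) in PyMT-N. Just inside the limit, at 5 or 6 UMIs, lay 6 and 1 cells, and 5 and 5 barcodes that met all other limits lay just outside, at 3 or 4.

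Pecam1, which encodes CD31, gave 59 UMIs in 36 PyMT-M myeloid cells and 104 UMIs in 10 PyMT-N cells, or 157 and 429 CPM, compared with 1310 and 1127 CPM in blood endothelial cells. Cdh5, which encodes VE-cadherin, was at 0 in all 132 PyMT-M cells, with an exact upper bound of 2.76% on the share of cells with a UMI. In PyMT-N it gave 103 UMIs in 4 cells, 71 of them in 1 cell. Of these 4 cells, 3 (31110, 25864 and 11800 UMIs) carried Cdh5 with Pecam1, had 0, 0 and 3 UMIs of Tyrobp, and had no more than 1 UMI of Lyz2 or C1qa, and the deeper pair met the rule through Fcer1g alone, with 8 and 5 UMIs. They are kept among the 28 because the rule admits them. Ratios given below without the endothelial-marked cells leave out all members with at least 2 UMIs of Cdh5, Cldn5, Egfl7, Esam and Emcn together, which were these 3 and 1 more PyMT-N cell (6969 UMIs, with 20 of Tyrobp) and 1 PyMT-M cell.

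**Figure D1:**
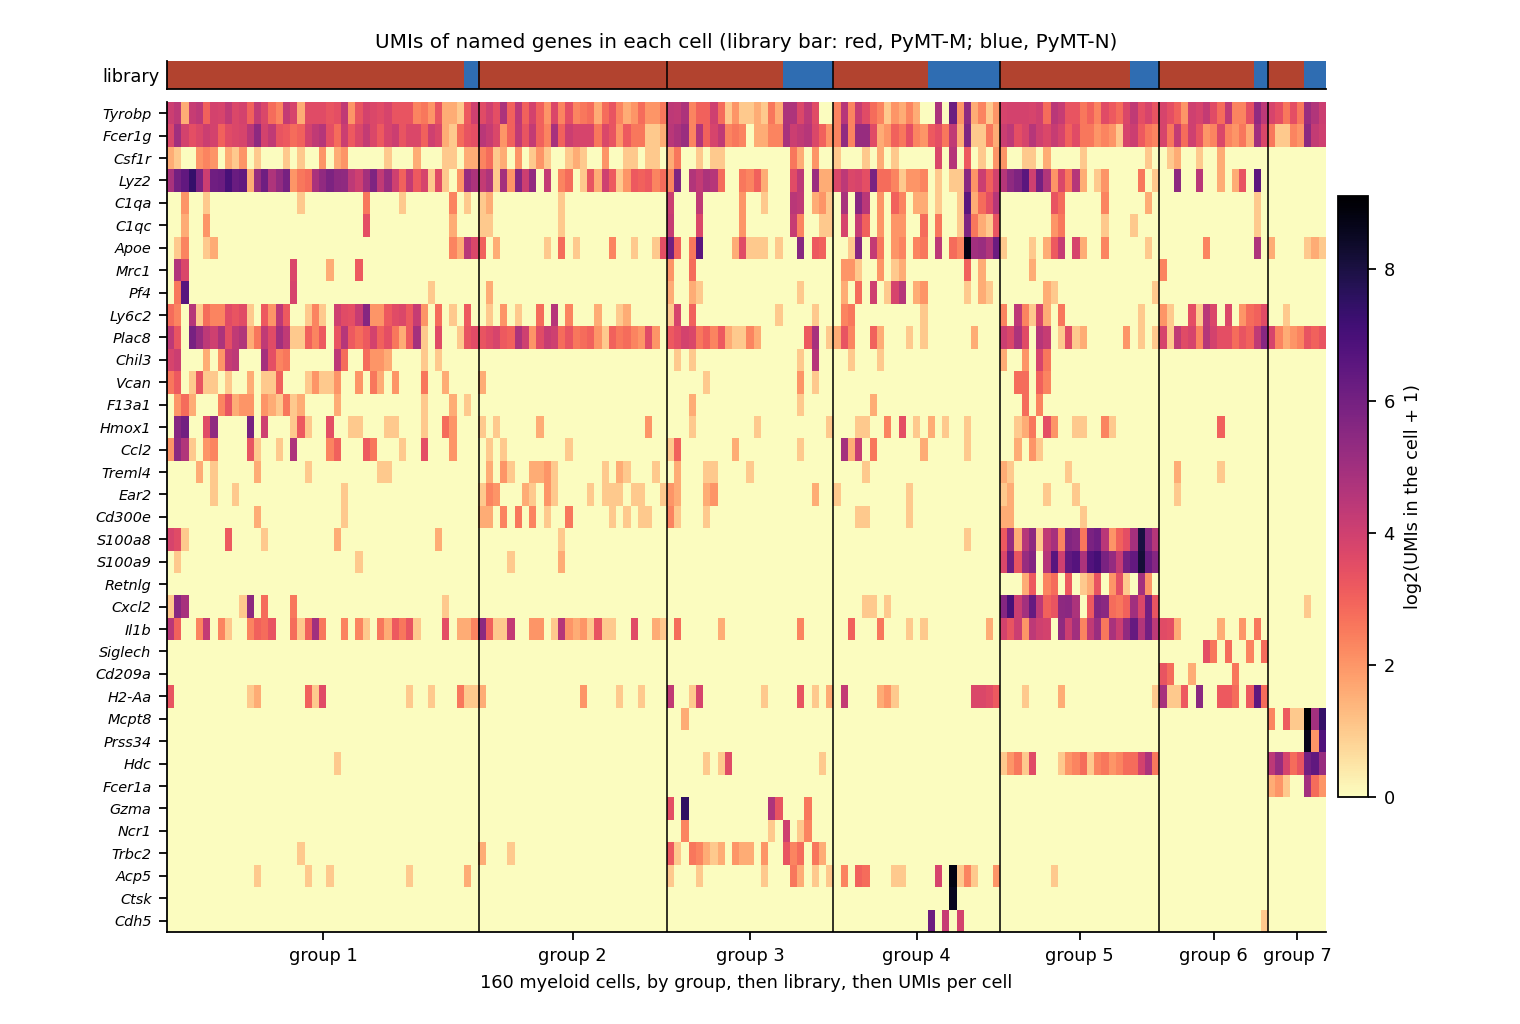
UMIs of named genes (rows) in each of the 160 myeloid cells (columns), as log2(UMIs + 1), ordered by cluster, library and depth; the bar on top is red for PyMT-M and blue for PyMT-N. Tyrobp and Fcer1g run through nearly all cells, while C1qa, S100a8, Mcpt8, Ctsk and Cdh5 each sit in a few cells.

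The number of myeloid cells per library depended on the rule's limit for B and T cell genes, and on whether the study's own gene filter was applied. As defined, they made up 1.98% of kept barcodes in PyMT-M (1.66 to 2.35, Clopper-Pearson) and 0.50% in PyMT-N (0.333 to 0.722), a difference of 1.48 percentage points (1.09 to 1.88 by the square-and-add method). Per 100 lymphocytes (at least 2 UMIs of 6 B and T cell genes, 343 and 327 cells) there were 38.5 and 8.56 myeloid cells, and per 100 blood endothelial cells (606 and 988 cells) 21.8 and 2.83. Lymphocytes, which the same beads should remove, made up 5.15% and 5.84% of kept barcodes, with a difference of -0.689 points (-1.52 to 0.130). Of these lymphocytes, however, 30 and 140 also met the myeloid and leukocyte minimums and were candidates that the limit on B and T cell genes had removed. Without them there were 42.17 and 14.97 myeloid cells per 100 lymphocytes, and lymphocytes made up 4.70% and 3.34% of kept barcodes, so their difference turned to 1.36 points (0.653 to 2.06).

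Before the limits on B cell, T cell and keratin genes, however, the libraries held nearly equal numbers of candidates, 179 in PyMT-M and 175 in PyMT-N. The limit on Cd79a, Cd3e and Trac removed 30 of the PyMT-M candidates (16.8%) but 140 of the PyMT-N ones (80.0%), and the keratin limit removed 17 and 7 more. Without the B and T cell limit the shares were 2.43% and 2.80%, a difference of -0.371 points (-0.959 to 0.206), so the excess in PyMT-M was lost.

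The candidates removed by that limit carried macrophage and lymphocyte transcripts together. In PyMT-N, 135 of the 140 had at least 2 UMIs of C1qa, C1qb and C1qc, 121 had at least 2 of B cell genes, 85 of T cell genes, and 64 of all 3 kinds. In PyMT-M the same counts were 15, 18, 18 and 5 of 30. They were deep, with a median of 14392.5 UMIs in PyMT-N and 5001.5 in PyMT-M, and other lymphocytes of the same libraries had medians of 4152 and 1386. Among those other lymphocytes, 18 of 187 in PyMT-N and 5 of 313 in PyMT-M held 2 UMIs of the C1q genes. At least 5 UMIs of 7 endothelial genes were found in 49 and 1 of the B- or T-marked candidates. Their median Scrublet doublet scores were 0.0547 in PyMT-N and 0.0820 in PyMT-M, beside 0.0620 and 0.0503 in the myeloid cells, and 18 of 140 and 0 of 30 were among the 6% of barcodes with the highest scores. Beyond these scores, whether the barcodes each held 1 cell, several cells stuck together or free RNA was not tested.

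The limit on B and T cell genes decided where macrophage transcripts were counted. Of 3575 C1qa UMIs in kept PyMT-N barcodes, 3186 (89.1%) lay in the B- or T-marked candidates and 185 (5.17%) in the myeloid cells. In PyMT-M, 136 of 360 (37.8%) lay in the former and 189 (52.5%) in the latter. Apoe, a lipid carrier abundant in tissue macrophages, gave 12344 UMIs in PyMT-N, of which 10266 were in the marked candidates and 749 in the myeloid cells. Mcpt8 and S100a9 behaved otherwise, with 0.599% and 9.54% of their PyMT-N UMIs in the marked candidates. In PyMT-N the marked candidates also held 45.3% of Ly6c2, 57.4% of Ccr2, 73.5% of Spi1 and 86.0% of Itgam UMIs. In PyMT-M they held 12.4%, 16.3%, 15.3% and 16.5%. The macrophage, monocyte and other myeloid values given here therefore describe the cells the rule kept, and not all such RNA in the libraries.

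**Figure D2:**
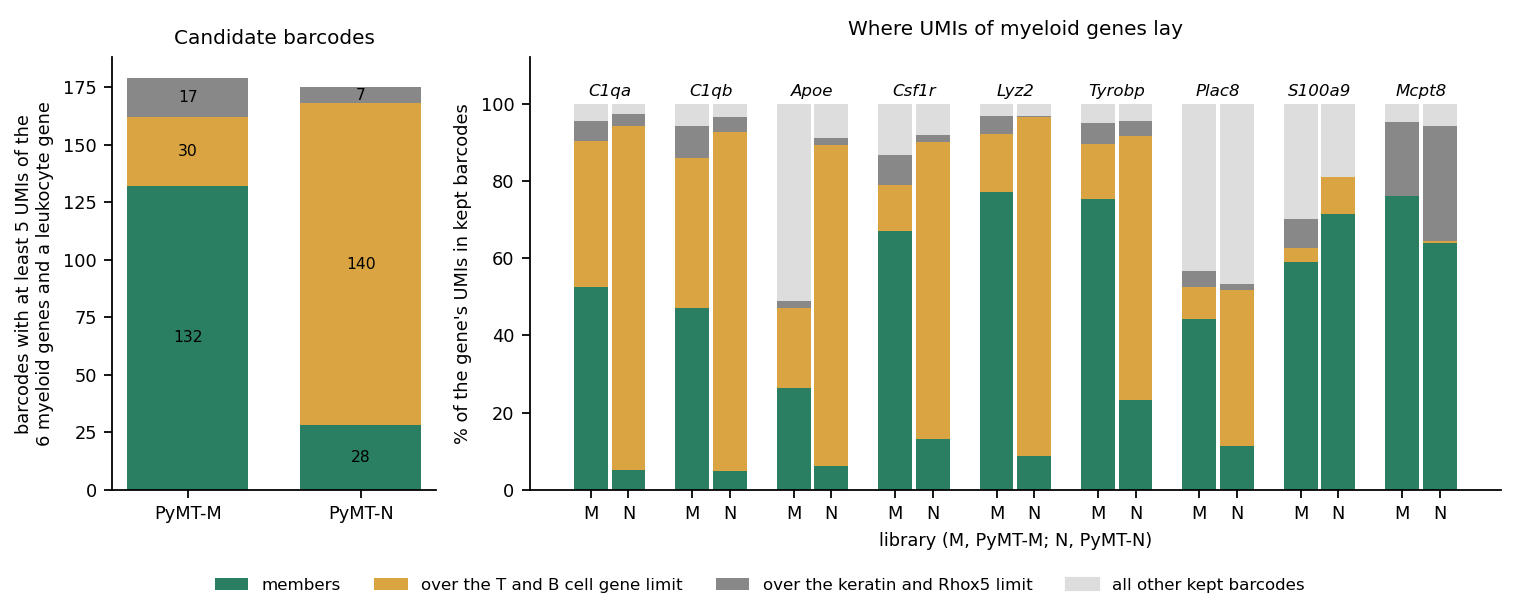
Left, candidate barcodes per library (y axis, number) that were kept as myeloid cells (132 and 28), or removed by the B and T cell gene limit (30 and 140) or the keratin limit (17 and 7); right, percent of all UMIs of 9 genes in kept barcodes that lay in each of these sets. In PyMT-N most C1qa, Apoe, Lyz2 and Tyrobp UMIs lay in the B- or T-marked candidates, while most S100a9 and Mcpt8 UMIs lay in the myeloid cells.

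The filter stated in the study, which keeps cells within 2-fold of the median number of genes, left 8 of the 132 PyMT-M cells and 14 of the 28 PyMT-N cells, all others being below its lower limits of 2208.5 and 2139.5 genes. It kept 14 and 115 of the B- or T-marked candidates. Under that filter the myeloid shares were 0.138% and 0.261%, with a difference of -0.123 points (-0.317 to 0.056).

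Marker lists described the mixture of cell types. To compare cells of unequal depth, each was thinned to 2000 UMIs, which left 82 PyMT-M cells (50 were shallower) and 27 PyMT-N cells (1 was shallower). At least 2 UMIs of 12 macrophage genes were found in 62.2% of thinned PyMT-M cells (50.8 to 72.7) and 59.3% of those of PyMT-N (38.8 to 77.6), against 7.34% and 2.85% of blood endothelial cells. The unthinned shares were 61.4% and 71.4%. The C1q genes of this list belong partly to the rule.

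The 9 monocyte genes were found at that level in 84.1% of cells in PyMT-M (74.4 to 91.3) and 37.0% in PyMT-N (19.4 to 57.6). The cells come from 1 library per line, so the intervals do not compare the lines. Without thinning the shares were 85.6% and 57.1%. Blood endothelial cells at the same depth gave 2.02% and 1.12%, and tumor cells 2.30% and 38.2%. The 14 neutrophil genes were found in 20.7% and 22.2% of myeloid cells, and in 0% of endothelial cells (exact upper bounds 0.675% and 0.375%).

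Several dendritic cell genes were sparse. Flt3, the growth factor receptor of dendritic cell precursors, gave 3 and 3 UMIs in all myeloid cells of PyMT-M and PyMT-N, and Zbtb46, a transcription factor of classical dendritic cells, 0 and 1. The type 1 markers Xcr1 and Clec9a gave 0 and 1 UMIs in the former and 1 each in the latter, and the chemokines Ccl17 and Ccl22 of mature dendritic cells were at 0 in both. The shared dendritic list gave 63 and 35 UMIs, with Itgax the most abundant gene in PyMT-M and Ciita in PyMT-N. It reached 2 UMIs in 6.10% and 7.41% of thinned cells, against 0.917% and 0.102% of blood endothelial cells. The plasmacytoid list did so in 6.10% and 3.70%, against 0% of endothelial cells (upper bounds 0.675% and 0.375%). The mature dendritic list gave 0% (upper bound 4.40%) and 11.1%, below the 17.8% and 21.1% of endothelial cells. The type 1 list gave 22.0% and 29.6%, against 4.59% and 4.58% of endothelial cells. The type 2 list gave 30.5% and 11.1%, against 0% and 0%. The UMIs of both lists were largely those of Irf8, Wdfy4 and Sirpa, which monocytes also express. Cd209a, of the type 2 list, gave 22 UMIs in PyMT-M, all of its UMIs there, and 0 in PyMT-N.

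**Figure D3:**
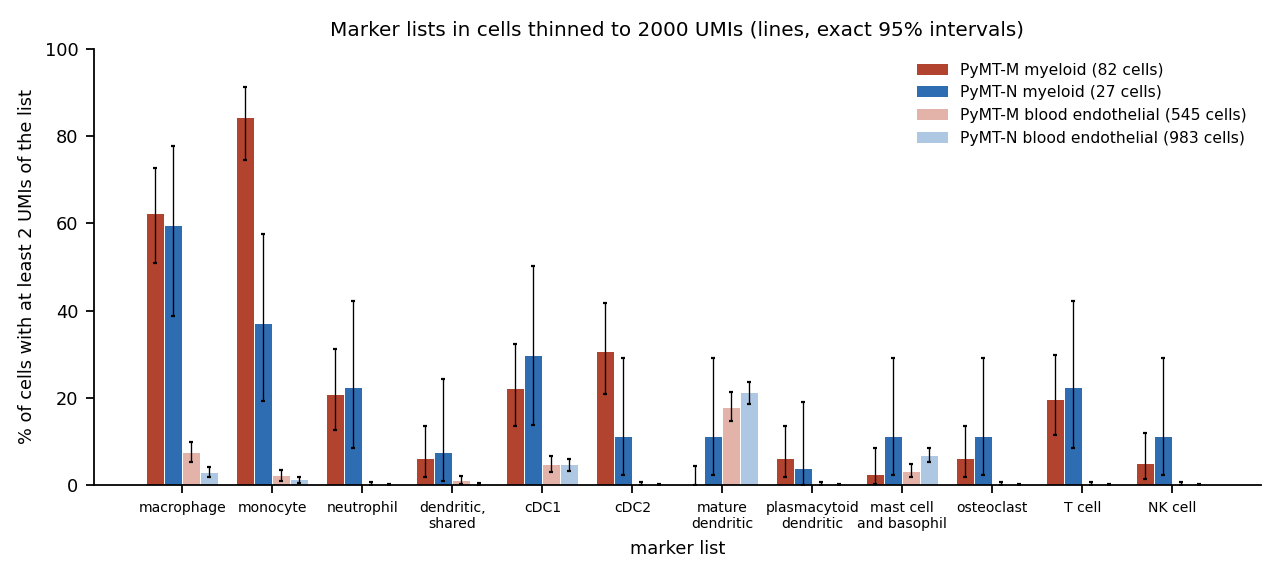
Percent of cells (y axis) with at least 2 UMIs of each marker list (x axis) after thinning to 2000 UMIs, in myeloid and blood endothelial cells of each library, with exact 95% intervals. The monocyte list gives 84.1% in PyMT-M and 37.0% in PyMT-N myeloid cells. The macrophage list gives 62.2% and 59.3%, and the neutrophil list 20.7% and 22.2%. The mature dendritic list stays below the endothelial cells.

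Clustering of the 160 cells gave 7 groups. The leading genes of a group define it and are no result, and since genes used for clustering differed between the libraries, the sizes of groups are given as composition and are not compared. Group 1 held 41 cells of PyMT-M and 2 of PyMT-N and was monocyte-like, with Chil3, Vcan and F13a1 among its leading genes. Group 2 held 26 PyMT-M cells and none of PyMT-N, so it cannot be told apart from that library. It was led by Grk3, Cd83, Smpdl3b, Cd300e and Ear2, and it kept no name because no marker of the lists led it. Treml4 and Ace, markers of the patrolling monocytes that crawl along vessel walls, gave 40 and 44 UMIs in PyMT-M in all, and 0 and 4 in PyMT-N.

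Group 3 (16 and 7 cells) was led by granzymes and Nkg7, genes of cytotoxic lymphocytes, and 19 of its 23 cells had at least 2 UMIs of the T cell list and 10 of the natural killer list. In 5 of the 16 and 2 of the 7 cells the 6-gene sum came from Tyrobp and Fcer1g alone, and the others also held UMIs of Lyz2, Csf1r or the C1q genes of the rule. All were within the B and T cell limit, which reads 3 genes only. Single cells dominated its genes: 586 Gzmc UMIs lay in 4 cells, and all 96 UMIs of the mast cell protease Mcpt4 in 1 cell.

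Group 4 (13 and 10 cells) mixed several kinds and was left unnamed. It held C1qa in 15 of 23 cells and 3 of the 4 endothelial-marked PyMT-N cells. It also held a PyMT-N cell of 21403 UMIs with 384 UMIs of Ctsk, the cathepsin that degrades bone collagen, 445 of Acp5, the acid phosphatase of osteoclasts, and 70 of Mmp9. That cell held every Ctsk UMI of the myeloid cells, 93.1% of the Acp5 UMIs and most of the 78 Mmp9 UMIs of PyMT-N. Another PyMT-N cell, of 6648 UMIs, held 93 UMIs of C1qa and 434 of Apoe.

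Group 5 (18 and 4 cells) was neutrophil-like. S100a8 was found in 22 of 22 cells and S100a9 in 21, with Cxcl2 in 21, Il1r2 in 19, G0s2 in 15 and Retnlg in 13. Ly6g, the surface marker of mouse neutrophils, and Elane, Camp and Ngp, granule genes of their precursors, were at 0 in both libraries. Neutrophils are small cells with little RNA, so barcodes under the minimum of 500 genes were also read. Of 49 PyMT-M barcodes with at least 10 UMIs of S100a8 and S100a9, 19 were myeloid cells, 14 held under 500 genes and 6 held over 1 UMI of the keratins and Rhox5. In PyMT-N there were 14 such barcodes, of which 4 were myeloid cells, 0 held under 500 genes and 4 were over the keratin limit. Over all barcodes, 1061 of 7821 and 1310 of 6974 held under 500 genes.

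Group 6 (13 and 2 cells) was led by Ly6d, Siglech, Cox6a2 and Cd209a, genes of plasmacytoid and type 2 dendritic cells, each in no more than 6 of its 15 cells, and it was left unnamed. MHC class II and co-stimulation genes summed to 20315 CPM in this group, and to between 146 and 3444 CPM in the other 6. Group 7 (5 and 3 cells) was mast cell- and basophil-like. The histamine-forming enzyme Hdc and the transcription factor Gata2 were found in 8 of 8 cells, and Ms4a2 and Fcer1a, chains of the IgE receptor, in 7 and 6. All 8 met the rule through Tyrobp and Fcer1g alone.

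Granule proteases were uneven among the cells of group 7. The 3 PyMT-N cells held 548, 168 and 30 UMIs of Mcpt8 (ENSMUSG00000022157), the basophil protease, and 388, 114 and 3 of Prss34. The 5 PyMT-M cells held 8, 4, 1, 1 and 0 UMIs of Mcpt8 and none of Prss34. The PyMT-N cells were deeper (3202, 5158 and 10881 UMIs, compared with 1333 to 2179), and scaled to depth the lowest of them held 5816 CPM of Mcpt8 beside 5727 CPM in the highest PyMT-M cell, while the other PyMT-N cells held 52467 and 50363. These are cells of 1 library each, and Mcpt8 is among the genes that lead the group, so the values are a description. A further 348 Mcpt8 UMIs of PyMT-N lay in candidates over the keratin limit.

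Gene levels were then compared between the libraries over summed counts. For each gene the log2 ratio of CPM, PyMT-M over PyMT-N, was taken over the myeloid cells. In such sums, fewer cells of a type and less RNA per cell cannot be told apart. Among 5043 genes with at least 20 UMIs, 792 (15.7%) were at least 2-fold higher in PyMT-M and 631 (12.5%) in PyMT-N, with a median log2 ratio of 0.03. Among the 428 myeloid-enriched genes (8.49% of those ranked), which had at least 4 times the CPM of blood endothelial cells and of tumor cells in both libraries, 216 (50.5%) were at least 2-fold higher in PyMT-M and 30 (7.01%) were so in PyMT-N; their median log2 ratio was 1.00. Lymphocytes were not a reference for this set, so it was not limited to myeloid genes. It held 5 of 5 natural killer and 4 of 8 T cell markers. Cd74, also in the set, stood at 2592 and 4357 CPM in lymphocytes, beside 1850 and 1558 in myeloid cells. The ratios of the enriched genes moved with the endothelial-marked cells. Without those 1 and 4 cells, 144 and 49 enriched genes were at least 2-fold higher in PyMT-M and PyMT-N, and 142 and 61 were so when every cell was weighted equally (the mean over cells). Without the endothelial-marked cells, Fcer1g went from a log2 ratio of 1.27 to 0.86, Il1b from 1.13 to 0.60, S100a9 from 0.31 to -0.21 and C1qa from -0.60 to -1.11, while Lyz2 went from 2.39 to 1.87 and Ly6c2 stood at 3.69. The 15 most abundant of the enriched genes included Lyz2, Fcer1g, Tyrobp, S100a9, Apoe, Plac8, Mcpt8, Il1b and Cxcl2.

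Monocyte genes were higher in PyMT-M. All 9 listed genes were at least 2-fold higher (15.7% of all ranked and 50.5% of myeloid-enriched genes were). The 9 genes, of which 5 were myeloid-enriched, had a median log2 ratio of 2.83. Their summed CPM had a log2 ratio of 2.50 (2.31 to 2.69) and of 1.81 over the mean of cells, compared with 0.30 in blood endothelial cells and -2.93 in tumor cells. Ly6c2 (ENSMUSG00000022584), the surface protein of inflammatory monocytes, gave 491 UMIs in 66 PyMT-M cells and 28 in 5 PyMT-N cells (log2 ratio 3.50, 2.95 to 4.11). No cell of PyMT-N exceeded 11 UMIs of it, while the highest PyMT-M cell held 48. Of 655 Ly6c2 UMIs in kept PyMT-N barcodes, 297 (45.3%) lay in the B- or T-marked candidates and 28 (4.27%) in the myeloid cells. In PyMT-M these were 96 (12.4%) and 491 (63.2%) of 777. For Plac8 and Ccr2 the marked candidates held 40.4% and 57.4% of the PyMT-N UMIs, and 8.20% and 16.3% of the PyMT-M ones. Vcan, a matrix proteoglycan, had a log2 ratio of 3.89 (2.49 to 5.80), F13a1, the clotting factor XIII subunit, 4.39 (2.48 to 7.47), and Chil3, a chitinase-like protein, 2.40 (1.77 to 3.09). Treml4 was at 0 in PyMT-N and had a log2 ratio of 3.11 when its absent counts were set to 3 over all PyMT-N myeloid cells. This value is no bound, since it depends on the count set. Ccr2, the receptor that brings monocytes out of the marrow, had a log2 ratio of 1.20 (0.61 to 1.84) from summed counts and 0.06 when cells were weighted equally.

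The highest ratios towards PyMT-M were listed among myeloid-enriched genes with at least 10 UMIs in each library. Beside Ly6c2, Ms4a4c had a log2 ratio of 3.50, Pik3ap1, an adaptor of PI3K signaling, 3.05, the unnamed transcript Gm56663 3.02, Slc8a1, the sodium-calcium exchanger, 2.93, Klra2 2.88, Gpr141 2.83, Cybb, the NADPH oxidase subunit of the respiratory burst, 2.75, Clec4a1 2.70 and Ifitm6 2.54. Over the mean of cells Ly6c2 stood at 3.01 and the others, in that order, at 2.58, 2.54, 2.20, 2.68, 1.68, 2.09, 2.01, 1.64 and 2.08. Plac8 (log2 ratio 2.22) was also higher in PyMT-M in endothelial cells (4.55) and tumor cells (2.49).

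Macrophage genes divided. Pf4, a chemokine (log2 ratio 4.38, 3.23 to 5.84), the mannose receptor Mrc1 (2.63), Cd68 (1.32) and Adgre1, which encodes F4/80 (1.14), were at least 2-fold higher in PyMT-M. Of the 193 Pf4 UMIs of PyMT-M, 99 lay in 1 cell. Of 412 Pf4 UMIs in kept PyMT-N barcodes, 350 (85.0%) lay in the B- or T-marked candidates and 6 (1.46%) in the myeloid cells. In PyMT-M these were 127 (34.8%) and 193 (52.9%) of 365. For Mrc1 they were 332 (31.1%) and 9 (0.842%) of 1069 in PyMT-N, and 50 (33.8%) and 86 (58.1%) of 148 in PyMT-M. The C1q genes did not share that direction, but C1qa and C1qb are genes of the rule, so their values are a description. C1qa (ENSMUSG00000036887) gave 189 UMIs in 24 PyMT-M cells and 185 in 15 PyMT-N cells (log2 ratio -0.60, -0.90 to -0.30), C1qb -0.15 (-0.47 to 0.17) and C1qc -0.45 (-0.86 to -0.05). Apoe was higher in PyMT-N (-1.62, -1.80 to -1.44), with 434 of 749 UMIs in 1 cell. Over the list, 5 of 11 ranked genes were higher in PyMT-M and 1 in PyMT-N, near the 50.5% and 7.01% of all myeloid-enriched genes, to which 10 of the 11 belong, with a median log2 ratio of 0.35, while the summed CPM had -0.34 (-0.45 to -0.24). Over the mean of cells the summed list stood at -1.43, C1qa at -1.91, C1qb at -1.36, C1qc at -1.34 and Adgre1 at 0.93, and without the endothelial-marked cells Cd68 was at 0.82 and Adgre1 at 0.62. When C1qa and C1qb were left out of the list, 5 of 9 ranked genes were higher in PyMT-M and 1 in PyMT-N. The summed CPM then had a log2 ratio of -0.33 (-0.45 to -0.21).

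The ratio of neutrophil genes depended on how cells were weighted. S100a9 (ENSMUSG00000056071) gave 947 UMIs in 21 PyMT-M cells and 494 in 4 PyMT-N cells (log2 ratio 0.31, 0.15 to 0.47), S100a8 467 in 26 and 360 in 5 (-0.26, -0.46 to -0.05), and the summed list had 0.05 (-0.06 to 0.16). Over the mean of cells the list stood at -0.84, S100a9 at -0.58 and S100a8 at -1.34, and without the endothelial-marked cells the list stood at -0.47. A single PyMT-N cell held 260 of the S100a8 UMIs. Csf3r, the receptor for G-CSF, had a log2 ratio of 0.42 (-0.27 to 1.14), Cxcr2, the receptor that draws neutrophils to CXC chemokines, -0.78 (-1.75 to 0.19), and Retnlg 0.08 (-0.57 to 0.75). G0s2 gave 124 UMIs in 17 PyMT-M cells and 0 in PyMT-N (4.74 with the same 3 counts).

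Many UMIs of genes higher in PyMT-N lay in few cells. Mcpt8 (log2 ratio -6.17, -6.99 to -5.47), Cpa3 (-1.47), Fcer1a (-3.33) and Hdc (-1.25) are genes of mast cells and basophils, and the Acp5 UMIs (-4.78) lay mostly in the single Ctsk cell. Serpina3g (-1.63), Ctsw (-1.49), Il18r1 (-1.32), Il36g (-1.31) and Hgf, the hepatocyte growth factor (-1.12), completed the list of largest ratios towards PyMT-N, with 14 to 21 UMIs each in that library. Without the B and T cell limit the ratios of Cpa3 (1.19), Hdc (0.87), Hgf (0.68) and Il36g (1.30) turned towards PyMT-M. Cell cycle genes were higher in PyMT-N in 7 of 9 ranked genes (12.5% of all ranked genes were), and 262 of the 318 UMIs lay in 3 cells. The endothelial list had a summed log2 ratio of -3.69, which became 0.72 without the endothelial-marked cells.

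**Figure D4:**
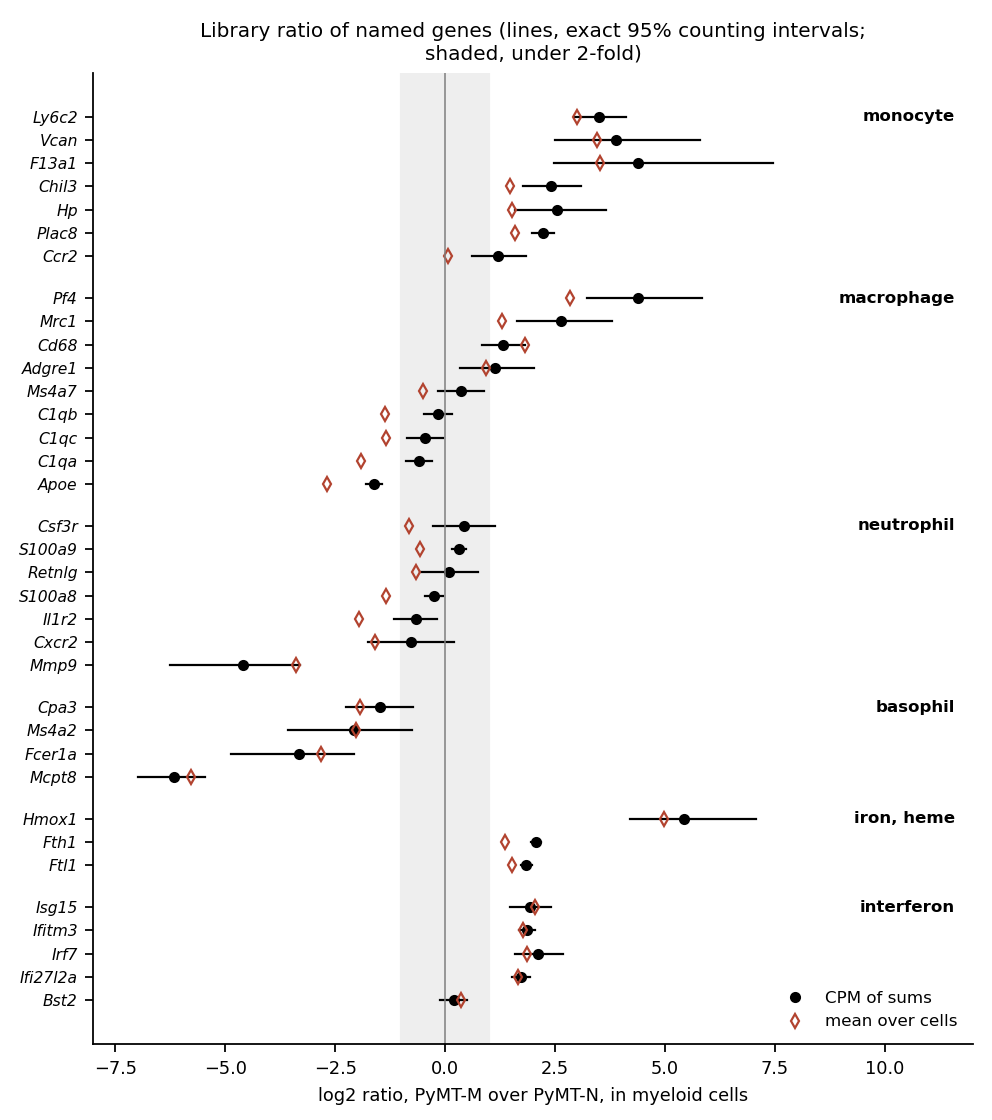
Log2 ratio of CPM, PyMT-M over PyMT-N (x axis), for named genes in myeloid cells, from summed counts (circles, with exact 95% counting intervals) and from the mean over cells (diamonds). By summed counts the monocyte genes lie to the right, the C1q genes and the neutrophil genes shown other than Mmp9 (-4.59) within 2-fold, and the basophil genes to the left; equal weighting of cells moves C1qa from -0.60 to -1.91, S100a8 from -0.26 to -1.34 and Ccr2 from 1.20 to 0.06.

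Functional lists were set beside the same ratios in endothelial and tumor cells. Iron and heme genes were higher in PyMT-M in 6 of 6 ranked genes, of which 1 was myeloid-enriched (15.7% of all ranked genes were higher), with a summed log2 ratio of 2.04 (1.95 to 2.12), compared with 0.01 in blood endothelial cells, -0.81 in tumor cells and 0.46 in lymphocytes, where 4 of 7 ranked genes were higher in PyMT-M. Hmox1, heme oxygenase, which breaks down heme, gave 335 UMIs in 38 PyMT-M cells and 5 in 4 PyMT-N cells (5.43, 4.20 to 7.07), and 274 of the 335 lay in group 1. The ferritin chains Fth1 and Ftl1, which store iron, had log2 ratios of 2.07 and 1.84. By group, the list stood at 26543 CPM in the PyMT-M and 14427 CPM in the PyMT-N cells of the neutrophil-like group. It stood at 8906 and 6859 in group 3, 11016 and 9017 in group 6, and 6490 and 2599 in group 7. Group 4, at 30998 and 4820, holds 3 endothelial-marked cells and the Ctsk cell of PyMT-N, and in group 1, at 36382 and 3035, PyMT-N had 2 cells.

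Interferon-stimulated genes were higher in PyMT-M in 12 of 17 ranked genes and lower in 0 (15.7% and 12.5% of all ranked genes), with a summed log2 ratio of 1.49 (1.39 to 1.58). Blood endothelial cells had a similar 1.24, tumor cells 0.66 and lymphocytes 0.38. Irf7, the master transcription factor of this response, had a log2 ratio of 2.11 (1.58 to 2.69), Isg15, a ubiquitin-like protein, 1.93, and Ifitm3, which blocks virus entry, 1.86. Bst2, tetherin, had only 0.19 (-0.11 to 0.50). The list was higher in PyMT-M in the 5 groups other than group 7 that held cells of both libraries, for example at 17661 and 7967 CPM in group 1 and 11870 and 7213 in group 5. In group 7 the CPM were 2204 and 2962.

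Chemokines were higher in PyMT-M in 8 of 13 ranked genes and lower in 0, beside 15.7% of all ranked and 50.5% of myeloid-enriched genes that were higher. Ccl2, which attracts monocytes, gave 226 UMIs in 31 PyMT-M cells and 2 in 2 PyMT-N cells (6.19, 4.32 to 9.24), and Cxcl10, which attracts T cells, 219 in 27 and 1 in 1 (7.14, 4.65 to 12.45). Cxcl2, a neutrophil attractant, had a log2 ratio of 1.93, or 0.39 over the mean of cells, Ccl3 -0.43 and Ccl4 0.34. The summed chemokine list had a log2 ratio of 1.19 in myeloid cells, 1.82 in blood endothelial cells and 4.43 in tumor cells. The myeloid value was 0.15 over the mean of cells and 0.69 without the endothelial-marked cells. By group the list was higher in PyMT-N in the neutrophil-like group 5, at 17656 CPM (PyMT-M) and 31009 CPM (PyMT-N). In groups 1 and 7 it was higher in PyMT-M, at 7421 and 1517, and 36366 and 11070. Groups 3, 4 and 6 also stood higher in PyMT-M, at 3488 and 560, 4620 and 690, and 118 and 65. Dissociation-stress genes moved with the list in groups 5 (5925 and 18158) and 7 (28897 and 7068), but not in group 1 (3622 and 6576). They also moved with it in groups 3 (2337 and 2183), 4 (2053 and 1328) and 6 (2354 and 327). Ccl2 was also higher in PyMT-M in tumor cells, at 7.62, and the part of free RNA from those cells in the myeloid value was not tested. Il1b, the inflammatory cytokine, had a log2 ratio of 1.13 (0.90 to 1.36) and 0.07 over the mean of cells.

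Fc receptor genes were higher in PyMT-M in 10 of 14 ranked genes and lower in 0, or in 9 of 12 without Tyrobp and Fcer1g. Of the 14 genes 13 were myeloid-enriched, a set of which 50.5% were higher. Among them was Fcgr1, the high-affinity IgG receptor (2.47). Their median log2 ratio went from 1.40 to 0.89 without the endothelial-marked cells, and that of the transcription factors from 1.46 to 0.92. Lysosomal genes, of which 3 of 16 were myeloid-enriched, were higher in 8 and lower in 2 (15.7% and 12.5% of all ranked genes). Their summed log2 ratio of 1.20 was carried in part by Lyz2, a gene of the rule, and was 0.69 without it (0.60 to 0.78), beside -0.02 in endothelial and -0.06 in tumor cells. Among transcription factors, of which 4 of 12 were myeloid-enriched, 9 were higher in PyMT-M (15.7% of all ranked genes were), including Cebpb (2.32) and Zeb2 (1.37), and Spi1 had 1.02 (0.64 to 1.43) and was at 0.51 without the endothelial-marked cells. Cd274, the checkpoint ligand PD-L1, gave 145 UMIs in 52 PyMT-M cells and 5 in 2 PyMT-N cells (4.23, 2.97 to 5.87), beside 1.75 in blood endothelial cells. MHC class II and co-stimulation genes had a median log2 ratio of 0.06. Their summed ratio went from 0.18 to -1.08 over the mean of cells. Of their 8 ranked genes 1 was higher in PyMT-M, Cd86 (2.50), which is no more than among all ranked genes (15.7%). All 8 were myeloid-enriched, a set of which 50.5% were higher. Dissociation-stress genes had a summed log2 ratio of 0.44, and 3 of 12 were higher in PyMT-M.

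**Figure D5:**
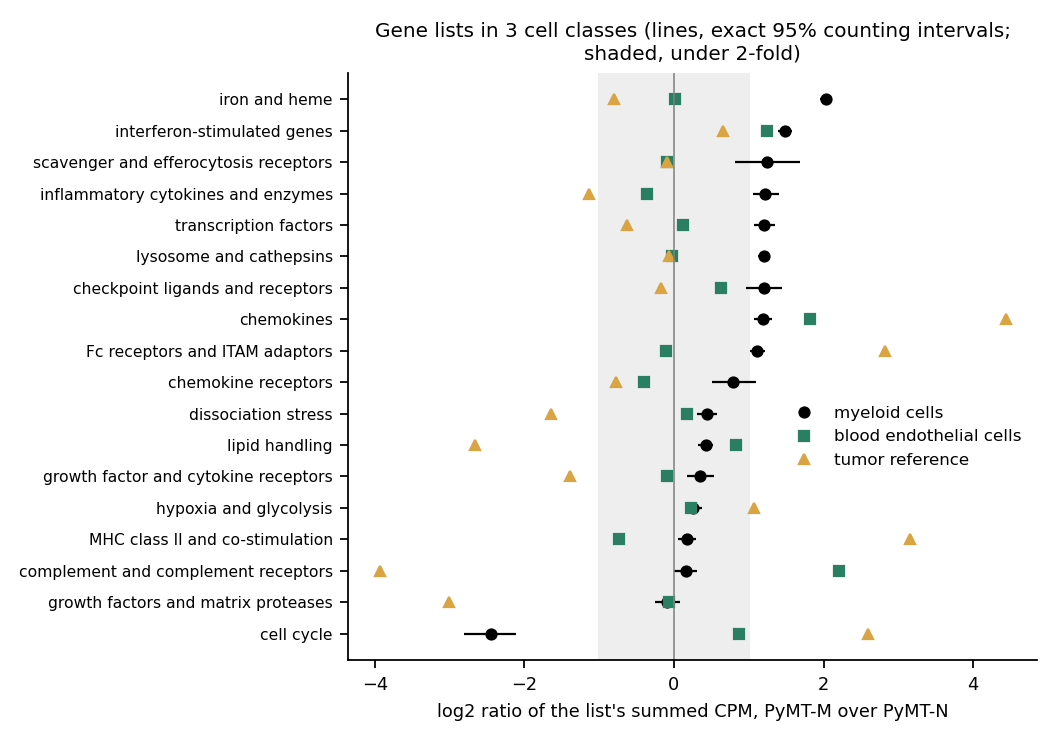
Log2 ratio of the summed CPM of each functional gene list, PyMT-M over PyMT-N (x axis), in myeloid cells (circles, with exact 95% counting intervals), blood endothelial cells (squares) and tumor cells (triangles). Iron and heme genes stand at 2.04 in myeloid cells and 0.01 in endothelial cells, while interferon genes are raised in both (1.49 and 1.24).

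Promoters of the myeloid-enriched genes were read for motifs of the factors above, over 250 bases before to 50 after the start of transcription (RefSeq sequences, build GRCm38.p6), and 318 of the 428 genes matched the table, with 414 promoters. The core bound by Spi1, GAGGAAGT, was found on either strand in 10.6% of them, and in 3.20% of all 32851 promoters. The Cebp motif TTGCNNAA was found in 15.2% and 10.8%, and an interferon response element in 7.73% and 3.44%. No motif contains another. A match is a description of letters in this window. The 42 enriched genes with the Spi1 core had a median log2 ratio of 0.96, and the 276 without it 1.04. The 250 bases before the start are shown for a monocyte gene and a neutrophil gene of these cells that hold the core, in capitals (for S100a8 it lies on the other strand, as its reverse complement). Ly6c2 (chr15:75111938-75112187, minus strand) holds it 142 and 8 bases before the start, while a second Ly6c2 start in the table holds it once, 108 bases before, and S100a8 (chr3:90668821-90669070, plus strand) 172 bases before.
Ly6c2: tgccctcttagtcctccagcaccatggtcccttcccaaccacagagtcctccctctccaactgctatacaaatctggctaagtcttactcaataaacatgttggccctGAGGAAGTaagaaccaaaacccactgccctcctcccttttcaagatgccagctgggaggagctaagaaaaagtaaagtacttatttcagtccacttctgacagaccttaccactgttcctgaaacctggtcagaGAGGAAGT
S100a8: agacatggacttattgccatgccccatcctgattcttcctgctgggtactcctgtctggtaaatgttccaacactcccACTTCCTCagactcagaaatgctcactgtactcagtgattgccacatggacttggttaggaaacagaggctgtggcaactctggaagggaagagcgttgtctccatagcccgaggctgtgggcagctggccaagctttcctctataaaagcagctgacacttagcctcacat
Lyz2, Fcer1g, C1qb, Ptprc, Laptm5, Coro1a, Plac8, S100a9 and Mcpt8, which were also read, do not hold these letters in the 250 bases before the start.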

How the data were processed

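Droplet libraries (10x 3′ chemistry) were processed by the authors with Cell Ranger 8.0.0, and the submitters' processing notes name the build mm39. The deposited values are UMI counts per gene (33696 genes) and barcode, not normalized. Members and gene lists were chosen with earlier results of these data known.

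Barcodes with at least 500 genes and at most 10% mt- UMIs were kept, and blood endothelial cells, tumor cells and lymphocytes of the same files were set by marker sums. Counts were summed per library and class, scaled to CPM and compared as log2 ratios with exact Poisson-ratio intervals (SciPy 1.17.1), for genes with at least 20 UMIs. A gene at 0 was given a floor of 3 counts over the summed cells of that class in the library. Cells were clustered with Scanpy 1.11.5 (Leiden, resolution 1, no integration). Named genes were those of the rule, the sort and the marker lists, the 15 most abundant myeloid-enriched genes, the 10 highest and 10 lowest library ratios (10 UMIs or more on both sides), the extremes of each list and the leading genes of each group. Interval code was tested on simulated data. Doublets were scored with Scrublet and not removed: its automatic limit called 3 PyMT-M barcodes (0.0384%), so it had not worked there, and 156 in PyMT-N (2.24%). The 6% of barcodes with the highest scores included 7 and 0 myeloid cells. Some genes counted in the lists are not reported here by name.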

Additional observations from a re-analysis of the deposited data

How the results depend on the processing

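The counts of cells carry the main limit: the PyMT-M excess in myeloid share turned with the study's own gene filter (0.138% and 0.261%, difference -0.123 points) and without the limit on B and T cell genes (2.43% and 2.80%, -0.371), and the PyMT-M share was 1.65% when a UMI of Csf1r, C1qa, C1qb or Lyz2 was required and 1.64% without cells of the natural killer or T cell lists. Without the B- or T-marked candidates, PyMT-N lymphocytes made up 3.34% of kept barcodes, with 14.97 myeloid cells per 100 of them, and the difference of lymphocyte shares turned to 1.36 points. The settings other than the gene filter were chosen after seeing the data. No paired analysis was possible because each line has 1 library. Of the values that answer a comparison, 110 stayed within their limits, 34 moved and 3 reversed. Of list medians over all alternatives, 311 kept their side of 2-fold, 45 lost and 8 gained that size, 2 passed it in the other direction and 4 reversed. Of named genes, 784 kept it, 53 lost and 29 gained it, 9 passed it in the other direction and 5 reversed. A value under 2-fold that stayed there counts as kept whatever its sign, and the sign turned for 30 list medians and 31 genes that were under 2-fold.

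Ranked genes higher in PyMT-N (631) numbered 382 without endothelial-marked cells, 322 with no keratin or Rhox5 UMI, 394 with at least 10 UMIs of the 6 genes, 404 with a UMI of Csf1r, C1qa, C1qb or Lyz2, 1639 without the B and T cell limit, 144 after thinning to 2000 UMIs, and 191 and 1208 with a minimum of 50 and 10 UMIs per gene. Those higher in PyMT-M (792) numbered 361 after thinning and 390 at 50 UMIs. Myeloid-enriched genes higher in PyMT-N (30) numbered 49, 47 and 50 under the first 3 of these settings, 146 without the B and T cell limit, 11 without natural killer and T cell list cells, 61 over the mean of cells, and 7 and 46 at 50 and 10 UMIs. Those higher in PyMT-M (216) numbered 142 over the mean of cells, 88 after thinning and 129 at 50 UMIs. There were 777 enriched genes without the B and T cell limit and 243 at 50 UMIs, in place of 428. Thinning and a minimum of 50 UMIs leave fewer genes to test, a minimum of 10 leaves more, and the other causes were not tested. The list medians that reversed were scavenger receptors (-0.29) and growth factors and proteases (0.12) without the B and T cell limit, and inflammatory genes (-0.015) and growth factors and proteases (0.24) after thinning. The genes that reversed were Cpa3 (1.19), Hdc (0.87), Hgf (0.68) and Il36g (1.30) without the B and T cell limit, and Il1b (-0.52) after thinning. At resolution 1.5 the monocyte-like group held 22.0% and 0% of the libraries' myeloid cells, and at 1000 UMIs per cell the macrophage list was found in 43.7% of PyMT-M and 53.6% of PyMT-N cells, which turns their order.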

Other observations

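Lipid-handling genes were at least 2-fold higher in PyMT-M in 7 of 13 ranked genes and in PyMT-N in 3, beside 15.7% and 12.5% of all ranked genes. The summed list had a log2 ratio of 0.42, which was -0.37 over the mean of cells and 0.13 without endothelial-marked cells. Fabp5, a fatty acid carrier, gave 656 UMIs in 66 PyMT-M cells and 60 in 14 PyMT-N cells (log2 ratio 2.82, 2.44 to 3.23), Plin2, which coats lipid droplets, 2.73, and Lgals3, galectin-3, 2.66. All 3 were also higher in PyMT-M in blood endothelial cells, at 1.95, 0.89 and 2.30. Cd63, a protein of late endosomes (-1.85), was higher in PyMT-N. Platelet, erythroid, lymphatic endothelial, tumor epithelial and fibroblast lists gave 9, 0, 8, 12 and 7 UMIs over the PyMT-M myeloid cells and 4, 0, 4, 9 and 2 over those of PyMT-N.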
